A study of Mus musculus with 2 samples.

Results

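The chemokines Cxcl9 and Cxcl10 and their shared receptor Cxcr3 were described in cells from MC38 tumours, as 3 genes taken by name from the 55357 in the matrices. MC38 is a mouse colon carcinoma line, here grown under the skin of C57BL/6 mice of the genotypes UEIS LSL and UEIS KI. The cells are labelled as immune cells that infiltrated the tumour and the library names carry CD45, the pan-leukocyte protein, but a sort is not described in the labels. Digested tumours were sequenced by the 10x Genomics 3' v3 assay, which tags each captured RNA molecule with a unique molecular identifier (UMI), in 1 library per genotype. UEIS is a micropeptide that the series' title ties to cGAS-STING and type I interferon signalling. The driver of the KI allele, the cells that carry it, the number of mice per library and their age and sex were not given in the sources used here. With 1 library per group there is no test: genotype and library cannot be told apart, and every interval below is a 95% interval for counting error only.

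Cxcl9 and Cxcl10 are small secreted proteins that draw Cxcr3-bearing T cells and natural killer (NK) cells into inflamed tissue and tumours. Interferon-gamma is the classical inducer of Cxcl9, while Cxcl10 also responds to type I interferons, to Irf3 and to NF-kappaB signals. Cxcr3 is a G protein-coupled receptor of activated T cells, NK cells and some dendritic cells, and the T-box factor Tbx21 is known to drive it. Cxcl11, the remaining interferon-induced ligand of the family, is not made as a functional protein in C57BL/6 mice.

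The ligand genes are neighbours on the minus strand of chromosome 5 (GRCm38). Cxcl9 (ENSMUSG00000029417) spans chr5:92321347-92328079, and Cxcl10 (ENSMUSG00000034855) spans chr5:92346638-92348889, with 18558 bases between them. Cxcr3 (ENSMUSG00000050232) lies at chrX:101731535-101734269, also on the minus strand. Art3, on the plus strand, overlaps Cxcl10. Whether counting used strand was not given in the sources used here, but Art3 had 53 UMIs over all barcodes of both libraries against 30868 for Cxcl10. The 250 bases before the start of each ligand gene (RefSeq, GRCm38.p6) are shown because the ligands differed in how they went with genotype and cell type below. They run 5′ to 3′ on the gene's strand, at chr5:92328080-92328329 for Cxcl9 and chr5:92348890-92349139 for Cxcl10, and capitals mark every match to the motifs searched.
Cxcl9: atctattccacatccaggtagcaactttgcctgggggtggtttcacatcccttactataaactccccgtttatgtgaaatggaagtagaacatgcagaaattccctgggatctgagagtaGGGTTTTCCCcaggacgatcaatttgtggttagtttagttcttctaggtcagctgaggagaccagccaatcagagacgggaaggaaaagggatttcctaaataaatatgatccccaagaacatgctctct
Cxcl10: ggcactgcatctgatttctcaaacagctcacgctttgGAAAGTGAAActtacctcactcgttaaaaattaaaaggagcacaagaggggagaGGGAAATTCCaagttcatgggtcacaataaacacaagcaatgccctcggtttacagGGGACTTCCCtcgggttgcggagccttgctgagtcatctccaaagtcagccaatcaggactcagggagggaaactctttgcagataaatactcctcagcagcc
The motifs were searched on both strands. They were GAAA and GAAA parted by any 2 bases, of the interferon-stimulated response element type, and TTC and GAA parted by any 3 bases, of the gamma-activated site type. GGGA and CC parted by any 4 bases is of the NF-kappaB type, and TCACACC of the T-box type. They are held by 2.98%, 7.02%, 17.6% and 3.33% of 32851 promoter windows cut 250 bases long in the same way. The Cxcl10 window held GAAAGTGAAA at 213 to 204 bases before the start, and the NF-kappaB type at 159 to 150 and at 103 to 94 bases before it, the latter match reading on both strands. In the Cxcl9 window the only match was the NF-kappaB type on the other strand, 130 to 121 bases before the start. The Cxcr3 window, cut at the RefSeq start, overlaps the annotated gene span given above and held none of these letters. A match is a description of letters and says nothing of binding.

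After limits on depth, mitochondrial share and doublets, 8647 UEIS LSL and 8685 UEIS KI cells were kept, with median depths of 7903 and 8642 UMIs, and 34 barcode sequences occurred in both libraries. Cells were sorted into classes by how many marker genes of a type each one showed. Macrophages were 72.7% and 75.8% of cells, and they were split at 2000 CPM (a gene's UMIs over all UMIs of the same cells, times 1000000) of the complement genes C1qa, C1qb and C1qc into C1q-high and C1q-low cells. T cells with little C1q numbered 167 and 147. A further 186 and 75 barcodes had T cell markers together with macrophage levels of C1q and were kept apart as T cells with C1q. Collagen-positive cells, at 375 and 194, had little of the leukocyte gene Ptprc, 12.3 CPM against 200.2 CPM over all cells, so the immune cell label does not describe them. The C1q-low macrophages had the osteoclast gene Acp5 at a pooled 3034 CPM, against 120 CPM in C1q-high macrophages. It was seen in 37.8% of C1q-low and 35.2% of C1q-high cells, so the pooled level does not describe every C1q-low cell.

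Most Cxcl9 UMIs lay in macrophages, the most numerous class, and their Cxcl9 level was lower in UEIS KI. Macrophages, 72.7% and 75.8% of cells, held 9085 of 10388 Cxcl9 UMIs (87.5%) in UEIS LSL and 1669 of 1928 (86.6%) in UEIS KI. Their level was 155 CPM (interval 152 to 158) in UEIS LSL and 24.0 CPM (22.8 to 25.1) in UEIS KI, 6.46-fold lower, a log2 difference of -2.69 (-2.77 to -2.62). Set to the same mix of macrophage states in both libraries, the difference was -1.77. C1q-high macrophages had 178 and 26.7 CPM, and C1q-low macrophages 44.2 and 12.97 CPM, so the C1q-high cells had the higher Cxcl9 level in both libraries. In UEIS LSL the macrophage level was above the 33.9 CPM of monocytes and the 65.2 CPM of type 2 conventional dendritic cells (cDC2). In UEIS KI the pooled levels of these classes, 24.4 and 24.1 CPM, were near that of macrophages, but detection was not alike. A Cxcl9 UMI was seen in 10 of 811 UEIS KI monocytes, a smaller share than the 170 of 6584 macrophages. It was seen in 6 of 158 UEIS KI cDC2, a larger share. A single cell held 50.6% of the UEIS KI monocyte UMIs, so their pooled level does not describe most monocytes.

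Cxcl10 was also lower in UEIS KI macrophages, by less than Cxcl9. Macrophages held 14168 of 18514 Cxcl10 UMIs (76.5%) in UEIS LSL and 7534 of 9334 (80.7%) in UEIS KI. The level was 241 CPM (237 to 245) against 108 CPM (106 to 111), 2.23-fold lower, a log2 difference of -1.16 (-1.20 to -1.12). C1q-high macrophages had 264 and 112 CPM, a difference of -1.24 (-1.29 to -1.20). C1q-low macrophages had 131 and 94.4 CPM, a difference of -0.48 (-0.59 to -0.37). A gene was counted as lower or higher in a class where the fold reached 1.5 and the counting interval lay wholly on that side. By this rule 2 of the 3 genes, Cxcl9 and Cxcl10, were lower in UEIS KI macrophages, as were 4.1% of the 13478 genes with at least 50 UMIs there. Cxcr3 was at 1.23 and 1.15 CPM, and its difference of -0.09 (-0.57 to 0.39) did not reach that size.

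**Figure D1:**
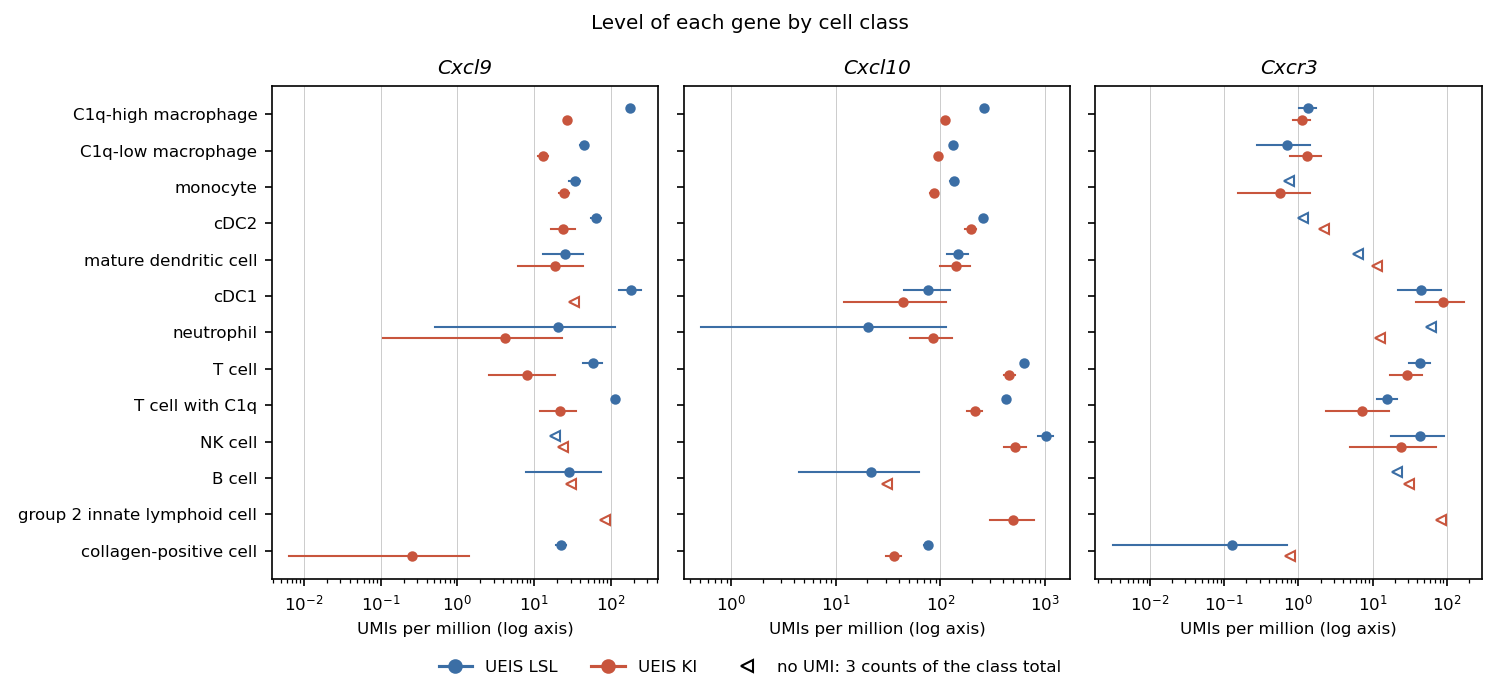
Level of Cxcl9, Cxcl10 and Cxcr3 by cell class, in CPM on a log axis, with UEIS LSL in blue and UEIS KI in red; points are the level of the pooled cells of a class, lines are 95% counting intervals, and open triangles mark classes with no UMI at 3 counts of the class total. In UEIS LSL, Cxcl9 was at 178 CPM in C1q-high macrophages and Cxcl10 at 1017 CPM in NK cells. Over both libraries, Cxcr3 lay between 24.1 and 87.8 CPM in T and NK cells with little C1q and in type 1 conventional dendritic cells (cDC1).

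Ligand RNA was concentrated in few macrophages. In UEIS LSL, 631 of 6288 macrophages had a Cxcl9 UMI, at most 191 in a cell, and 60 cells held 50% of the gene's macrophage UMIs. In UEIS KI, 170 of 6584 had one, at most 102 in a cell, and 18 cells held 50%. The top 1% of macrophages thus held 51.4% and 87.9% of Cxcl9 UMIs. For Cxcl10, 1302 and 837 macrophages had a UMI, the top 1% held 43.4% and 61.7%, and 83 and 37 cells held 50%. Counting intervals treat UMIs as independent and so are too narrow for such genes.

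Drawing every cell down to 1000 UMIs removed depth from the comparison of detection shares. In that setting a cell was called detected with at least 1 UMI. Cxcl9 was detected in 270 of 6240 UEIS LSL macrophages, 4.33% (3.84% to 4.86%, Clopper-Pearson), and in 60 of 6499 UEIS KI macrophages, 0.923% (0.705% to 1.19%). Unthinned, these shares were 10.0% and 2.58%. Detected cells held 3.45 Cxcl9 UMIs on average in UEIS LSL and 2.48 in UEIS KI, so fewer detected cells, and fewer molecules in those, went together. For Cxcl10 the shares were 8.25% (7.58% to 8.96%) and 3.86% (3.41% to 4.36%), or 20.7% and 12.7% unthinned. Mean Cxcl10 UMIs in detected cells were 2.88 and 2.76. The Cxcl10 difference therefore lay mostly in the number of detected macrophages. B cells, which should lack both ligands, served as background: Cxcl9 was seen in 0 of 29 and 0 of 33 thinned B cells, which by 3 counts of the total, the limit used for every 0 here, allows shares up to 10.3% and 9.09%. Cxcl10 was seen in 1 of 29 and 0 of 33. Unthinned B cells had 4 Cxcl9 UMIs in UEIS LSL, 28.8 CPM (7.84 to 73.7), and none in UEIS KI, with an upper bound of 37.7 CPM, so they set no bound under the UEIS KI macrophage level. Collagen-positive cells gave tighter bounds, with Cxcl9 in 1.89% (0.764% to 3.86%) of 370 UEIS LSL cells and in 0 of 194 UEIS KI cells, which allows up to 1.55%. The UEIS KI macrophage share of Cxcl9 is under that limit. Collagen-positive cells of UEIS KI had 0.256 CPM of Cxcl9 (1 UMI, upper bound 1.43), against 24.0 CPM in macrophages. Whether collagen-positive cells make Cxcl9 of their own was not tested, so they do not set a background for macrophages. They were also deeper, with medians of 18729 and 17518.5 UMIs, against 8302 and 9342.5 in macrophages.

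**Figure D2:**
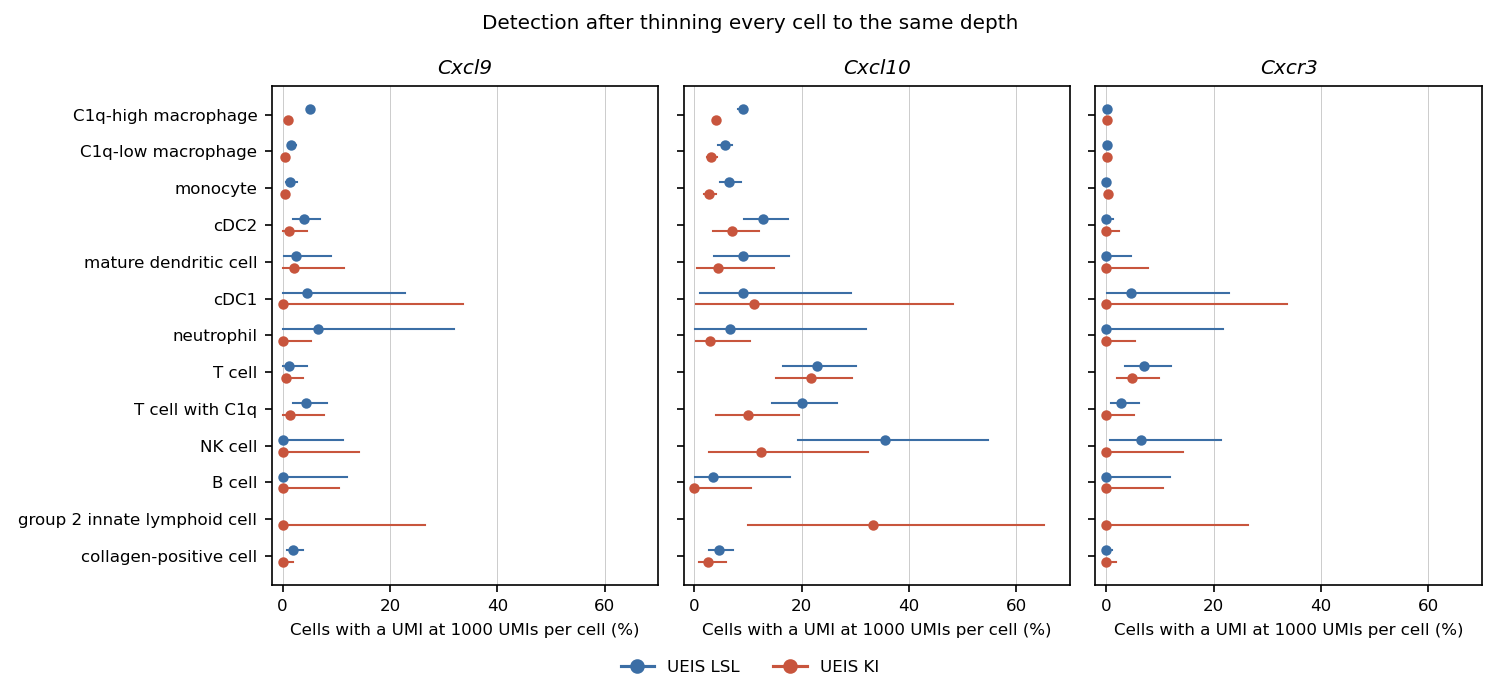
Share of cells with a UMI of Cxcl9, Cxcl10 and Cxcr3 after every cell was thinned to 1000 UMIs, by class, in percent; points are shares, lines 95% Clopper-Pearson intervals, UEIS LSL in blue and UEIS KI in red. Cxcl9 shares of macrophages were 4.33% and 0.923%, while Cxcl10 was detected in 22.8% and 21.7% of T cells.

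Among macrophage states, called from state markers in the thinned cells, the MHC class II state carried most Cxcl9. It had 356 CPM (347 to 366) in UEIS LSL and 138 CPM (127 to 150) in UEIS KI, a log2 difference of -1.37 (-1.49 to -1.25). This state made up 21.6% of all UEIS LSL cells and 5.94% of UEIS KI cells. Dividing macrophages had 152 and 16.6 CPM, the largest difference of Cxcl9 among the 5 states at -3.20 (-3.40 to -3.00). Spp1 Arg1 macrophages, with hypoxia and matrix genes, had 62.4 and 23.7 CPM. Resident-like macrophages, marked by Lyve1, Folr2, Fcna or Cd163, had 59.0 and 11.3 CPM, and cells of no state 50.2 and 9.49 CPM. Cxcl9 was lower in UEIS KI in each of the 5 states, with differences from -3.20 to -1.37.

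The pooled Cxcl10 level was spread more evenly over the states, and in UEIS KI its order was not that of detection. The UEIS LSL levels were 331 CPM in the MHC class II state, 318 CPM in dividing cells, 182 CPM in cells of no state, 180 CPM in Spp1 Arg1 cells and 176 CPM in resident-like cells. In UEIS KI the order of levels was other: 129 CPM in cells of no state, 116 CPM in resident-like, 114 CPM in MHC class II, 106 CPM in dividing and 89.8 CPM in Spp1 Arg1 cells. The difference was -1.53 (-1.67 to -1.40) in MHC class II cells and -1.59 (-1.68 to -1.50) in dividing cells, and -0.60 (-0.71 to -0.50) in resident-like cells. Whether these differences differ from each other was not tested.

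**Figure D3:**
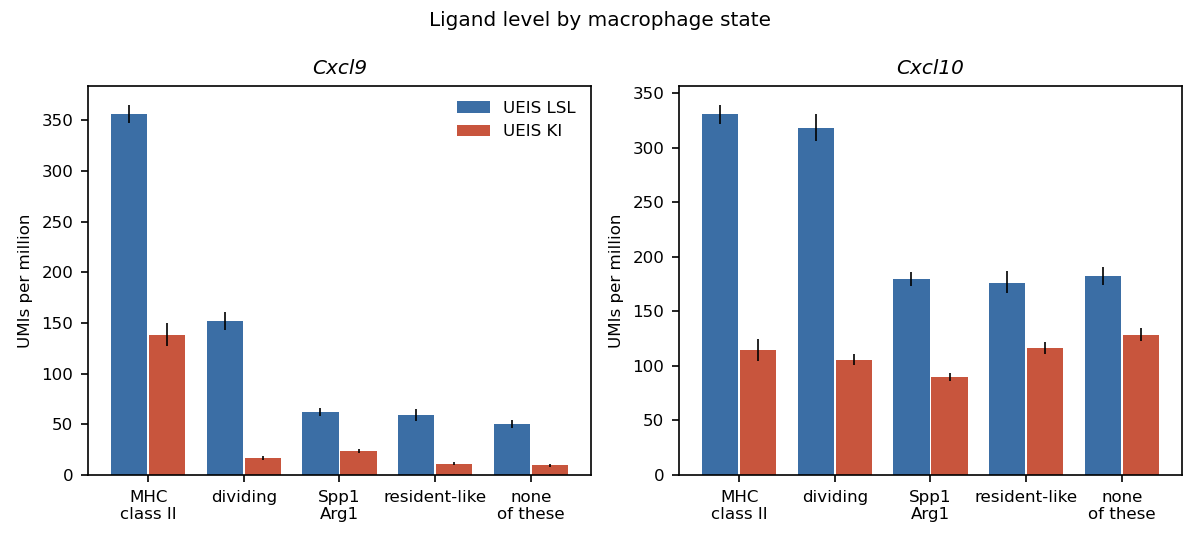
Levels of Cxcl9 and Cxcl10 by macrophage state in CPM, with UEIS LSL in blue, UEIS KI in red and 95% counting intervals as error bars. The MHC class II state had the highest Cxcl9 level in both libraries (356 and 138 CPM), while Cxcl10 in UEIS KI stayed between 89.8 and 129 CPM in every state.

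The same macrophages tended to show both ligands, yet most Cxcl10-positive cells had no Cxcl9 UMI, as was so for most macrophages at this depth. In thinned UEIS LSL macrophages 90 cells had both, 180 Cxcl9 alone, 425 Cxcl10 alone and 5545 neither. Independent detection at these shares would give 22.3 cells with both. Cxcl10 was detected in 33.3% of Cxcl9-positive and 7.12% of Cxcl9-negative cells, an odds ratio of 6.52 (4.91 to 8.62). In UEIS KI the counts were 14 with both, 46, 237 and 6202, against 2.32 expected under independence, and the odds ratio was 7.96 (3.98 to 15.0). Cxcl10 was found in 23.3% of Cxcl9-positive and 3.68% of Cxcl9-negative cells there. Of Cxcl10-positive macrophages, 82.5% in UEIS LSL and 94.4% in UEIS KI lacked a Cxcl9 UMI. A Cxcl9 UMI was thus in 17.5% and 5.58% of them, against 3.14% and 0.736% of Cxcl10-negative macrophages. At 1000 UMIs per cell a missing UMI does not show that the RNA was absent. Within the MHC class II state of UEIS LSL the odds ratio was 5.69 (3.91 to 8.25). Within UEIS LSL dividing cells it was 1.90 (0.45 to 6.01), an interval that includes 1.

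**Figure D4:**
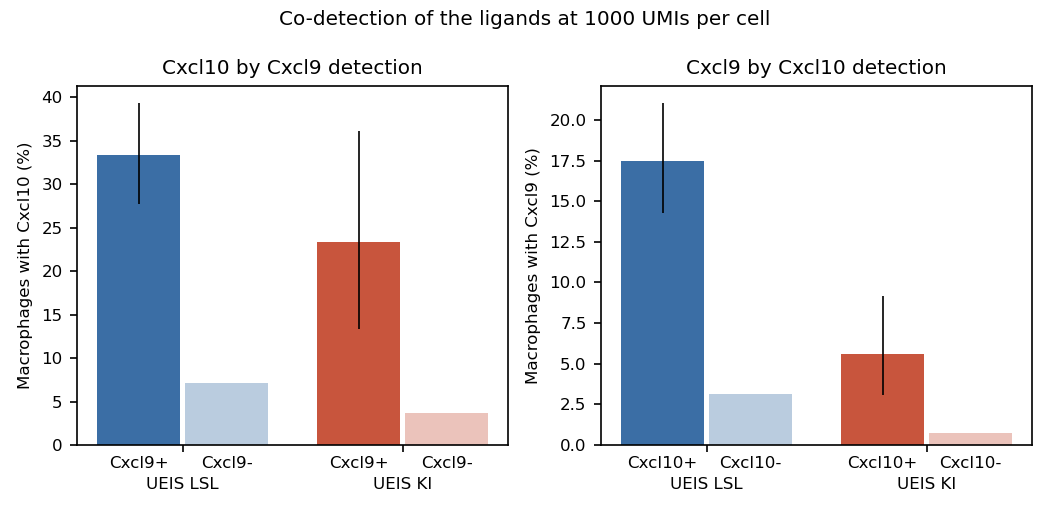
Percentage of thinned macrophages with Cxcl10 by Cxcl9 detection (left) and with Cxcl9 by Cxcl10 detection (right), for UEIS LSL in blue and UEIS KI in red; full bars are cells positive for the other ligand, pale bars cells negative for it, and lines are 95% Clopper-Pearson intervals of the full bars. Cxcl10 was in 33.3% of Cxcl9-positive against 7.12% of Cxcl9-negative UEIS LSL macrophages, and in 23.3% against 3.68% in UEIS KI.

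The genes that went with each ligand in single macrophages were ranked by the ratio of mean UMIs in ligand-detected over undetected thinned cells, the first 10 in each library. For Cxcl9 the libraries shared 6 of 10: Gbp2, Iigp1, Cxcl10, Ccl5, Acod1 and C3. Gbp2, an interferon-induced guanylate-binding protein, was 17.8-fold higher in Cxcl9-detected UEIS LSL cells (197 UMIs in 270 cells) and 20.2-fold in UEIS KI (29 UMIs in 60 cells). Iigp1, an immunity-related GTPase, was 14.6-fold and 17.5-fold higher. For Cxcl10 the libraries shared 8 of 10: Iigp1, Cmpk2, Rsad2, Acod1, Ifit1, Cxcl9, Ifit3 and Isg15. Rsad2, the antiviral protein viperin, was 9.58-fold and 24.3-fold higher in Cxcl10-detected cells, and Ifit1, an RNA-binding interferon-induced protein, 8.92-fold and 33.2-fold. Isg15, a ubiquitin-like modifier, was 6.22-fold and 11.6-fold higher. Cxcl9-detected cells had 9.72-fold and 17.1-fold more Cxcl10. These ratios describe the genes with the highest values and rest on small counts in UEIS KI.

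Monocytes and cDC2 were few and held little of the ligand RNA. Monocytes had Cxcl9 at 33.9 and 24.4 CPM (137 and 172 UMIs), a log2 difference of -0.47 (-0.80 to -0.14). A single UEIS KI cell held 50.6% of those 172 UMIs, and without the highest cell of each library the difference was -1.12. After thinning, 9 of 627 UEIS LSL and 3 of 811 UEIS KI monocytes had Cxcl9. Monocyte Cxcl10 was 135 and 86.0 CPM, a difference of -0.66 (-0.82 to -0.49), with 31.1% of the UEIS KI UMIs in 1 cell. Thinned detection of Cxcl10 was 6.54% (4.73% to 8.77%) against 2.71% (1.71% to 4.08%). These values turned on the gate: with 1 more marker required the monocyte differences were -2.54 for Cxcl9 and 0.02 for Cxcl10.

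In cDC2, Cxcl9 was 65.2 CPM (55.8 to 75.7) in UEIS LSL and 24.1 CPM (16.6 to 33.9) in UEIS KI, a difference of -1.44 (-2.02 to -0.89). Their Cxcl10 was 256 CPM (237 to 276) and 196 CPM (173 to 221), a difference of -0.39 (-0.60 to -0.18). A single UEIS KI cell held 46.3% of 268 Cxcl10 UMIs. Without the highest cell of each library the Cxcl10 difference was -1.16, and with 1 more marker required it was -2.54. Thinned detection of Cxcl10 was 12.9% (9.17% to 17.4%) and 6.96% (3.53% to 12.1%), intervals that overlap. By the 1.5-fold rule 4.97% of 9061 genes in monocytes were lower and 9.24% higher, and 2.25% of 6718 genes in cDC2 were lower and 3.13% higher. Cxcl9 in cDC2 and Cxcl10 in monocytes were among the lower genes, and Cxcl9 in monocytes and Cxcl10 in cDC2 were not. Mature dendritic cells, which carry antigen to lymph nodes, had Cxcl10 at 147 and 140 CPM (70 and 37 UMIs), and 1 cell held 91.9% of the UEIS KI UMIs. The cDC1 of UEIS LSL had 40 Cxcl9 UMIs in 22 cells, of which 34 lay in 1 cell, and those of UEIS KI had none in 9 cells.

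Lymphocytes held Cxcl10 but little Cxcl9. T cells with little C1q had 577 Cxcl10 UMIs in 167 UEIS LSL cells, 637 CPM (586 to 691), and 285 in 147 UEIS KI cells, 458 CPM (406 to 514). The difference was -0.48 (-0.69 to -0.27), short of 1.5-fold, and was -0.14 with every cell counted alike. NK cells had 1017 CPM (867 to 1187) and 523 CPM (403 to 666), from 162 and 65 UMIs in 31 and 24 cells. With T cells with C1q added, T cell Cxcl10 was 478 and 329 CPM, a difference of -0.54 (-0.70 to -0.39). In that wider set 3.21% of 8058 genes were lower by the 1.5-fold rule and 5.17% higher, and Cxcl10 was neither. The levels of T and NK cells with little C1q lay above those of macrophages of the same library, which were 241 and 108 CPM. T and NK cells with little C1q were few, and T cells held 3.12% and 3.05% of all Cxcl10 UMIs. After thinning, Cxcl10 was detected in 36 of 158 UEIS LSL T cells, 22.8% (16.5% to 30.1%), and in 31 of 143 UEIS KI T cells, 21.7% (15.2% to 29.3%). The log2 ratio of these shares was -0.07 (-0.81 to 0.66), which allows 1.5-fold either way. Thinned NK cells had it in 11 of 31 and 3 of 24. Group 2 innate lymphoid cells, called only in UEIS KI, had 18 Cxcl10 UMIs, in 5 of 12 cells, and 11 of those UMIs lay in 1 cell.

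Macrophage RNA in these lymphocytes was measured beside their Cxcl10. Per 1000 C1q UMIs, macrophages had 25.3 and 11.6 Cxcl10 UMIs, T cells with little C1q 1149 and 783, and NK cells 2613 and 915. B cells had 52.6 in UEIS LSL, from 3 Cxcl10 UMIs, and none in UEIS KI. These T and NK cells were limited to under 2000 CPM of C1q, which by itself raises the ratio. It was also above that of all macrophages in C1q-low macrophages (266 and 188), monocytes (273 and 145), cDC2 (715 and 404) and mature dendritic cells (427 and 240). The ratio therefore does not measure the part of macrophage RNA in lymphocyte Cxcl10. The 9 macrophage markers other than C1q summed to 4921 and 2726 CPM in T cells, against 10260 and 10011 CPM in macrophages, and Pf4, a macrophage and platelet chemokine, was at 1413 and 244 CPM in T cells. In T cells with at most 2 of those 9 markers, 83 in each library, the marker sum was 646 and 754 CPM and Pf4 was 98.6 and 187 CPM. The low marker sum follows from how these cells were chosen. They were also shallower, with median depths of 1757 and 1868 UMIs, against 7413.5 and 5251 in T cells with more of the markers. Cxcl10 in the T cells with at most 2 markers was 729 CPM (610 to 863) in UEIS LSL and 453 CPM (366 to 556) in UEIS KI. Their Cxcl9 was 1 UMI in each library. B cells chosen in the same way, 20 and 33, had no Cxcl10 UMI. NK cells chosen so had 64 Cxcl10 UMIs in 18 UEIS LSL cells, 1185 CPM, but only 4 in 14 UEIS KI cells, 69.8 CPM (19.0 to 179). Most Cxcl10 UMIs of UEIS KI NK cells thus lay in cells with more than 2 of these markers. All 65 of those UMIs lay in 6 of 24 cells, with 38.5% in 1 cell. Whether they were macrophage RNA was not tested.

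T cells with a Cxcl10 UMI were not those with the most interferon-gamma RNA in UEIS LSL. Thinned cells set which T cells had Cxcl10, while the levels given here use all UMIs of those cells. In UEIS LSL the 36 with Cxcl10 had Ifng at 281 CPM and the 122 without had 551 CPM. Their median depths were 4600 and 3553 UMIs. In UEIS KI, the 31 with Cxcl10 had 109.6 CPM and the 112 without 55.0 CPM, from 12 and 28 UMIs. Their C1q was 324 CPM with Cxcl10 and 624 CPM without in UEIS LSL, and 420.1 against 620.5 CPM in UEIS KI, within a class limited to under 2000 CPM of C1q. In T cells with C1q it was 9675 CPM with Cxcl10 and 8437 CPM without in UEIS LSL, and 7820 against 9057 CPM in UEIS KI. The macrophage marker Cd68 was 448 CPM with Cxcl10 and 326 CPM without in UEIS LSL, and 109.6 against 194 CPM in UEIS KI. The T cell gene Cd3e was at 644 against 541 CPM and at 676 against 483 CPM. By subset, the Cxcl10 level with little C1q was 680 and 271 CPM in gamma-delta T cells, 654 and 487 CPM in Foxp3-positive regulatory-type cells, and 681 and 310 CPM in other T cells. Cd8-positive T cells went the other way, with 493 CPM (86 UMIs in 30 cells) in UEIS LSL and 1244 CPM (89 UMIs in 18 cells) in UEIS KI. A single UEIS KI cell held 42.7% of those 89 UMIs, and thinned detection was 8 of 30 and 5 of 18.

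Cxcl9 in T cells lay in very few barcodes. T cells with little C1q had 53 UMIs in 6 of 167 UEIS LSL cells, and 39 of these were in 1 gamma-delta barcode. In UEIS KI there were 5 UMIs in 4 of 147 cells. The difference, -2.86 (-4.55 to -1.55), was past the 1.5-fold rule, as were 5.47% of T cell genes, but thinned detection was 2 of 158 and 1 of 143 cells. NK cells with little C1q had none in either library. T cells with C1q had Cxcl9 at 115 and 21.7 CPM, and per 1000 C1q UMIs 13.3 and 2.44, near the macrophage values of 16.2 and 2.57. All 15 UEIS KI UMIs of that class lay in 1 of 75 barcodes. Their Cxcl10 per 1000 C1q UMIs, 49.5 and 23.9, was above the macrophage values of 25.3 and 11.6. Of 9 NK barcodes with C1q in UEIS LSL, 1 held all 120 Cxcl9 UMIs of that class.

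Collagen-positive cells had low ligand levels that also differed between the libraries. Cxcl9 was 22.2 CPM (177 UMIs) in UEIS LSL and 0.256 CPM (1 UMI) in UEIS KI, a difference of -6.44 (-11.75 to -3.94). Cxcl10 was 75.4 CPM (69.5 to 81.7) and 35.9 CPM (30.2 to 42.3). Neutrophils had 1 and 20 Cxcl10 UMIs in 24 and 83 cells, and 1 Cxcl9 UMI in each library.

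Cxcr3 was sparse, with 181 UMIs in kept UEIS LSL cells and 123 in UEIS KI. T cells with little C1q had 39 UMIs, 43.1 CPM (30.6 to 58.9), in UEIS LSL and 18 UMIs, 28.9 CPM (17.1 to 45.7), in UEIS KI. The log2 difference was -0.57 (-1.47 to 0.27), and no difference was detectable at this depth. After thinning, 11 of 158 (6.96%; 3.53% to 12.1%) and 7 of 143 (4.90%; 1.99% to 9.83%) had a UMI. Unthinned, the shares were 16.2% and 11.6% at median depths of 3463 and 2240 UMIs. T cells with at most 2 other macrophage markers, the shallower cells described above, had 115 and 64.1 CPM (21 and 13 UMIs). NK cells had 44.0 CPM (17.7 to 90.6) and 24.1 CPM (4.97 to 70.5), from 7 and 3 UMIs. No receptor UMI was seen in several classes: cDC2, mature dendritic cells, B cells and neutrophils had 0 Cxcr3 UMIs in both libraries, and 0 of 280 and 0 of 158 thinned cDC2 allow shares with a UMI up to 1.07% and 1.90%, which does not limit the share of cells that express the gene.

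By T cell subset with little C1q, Cxcr3 was 113 and 13.5 CPM (9 and 1 UMIs) in gamma-delta cells. The UEIS LSL UMIs lay in 3 of 19 cells. Foxp3-positive cells had 46.4 and 25.0 CPM (12 and 4 UMIs), Cd8-positive cells 22.9 and 28.0 CPM (4 and 2 UMIs), and other T cells 35.6 and 34.8 CPM (14 and 11 UMIs). The intervals of the subsets overlapped within each library. The cDC1, dendritic cells that cross-present antigen to Cd8-positive T cells, had Cxcr3 at 45.3 CPM (21.7 to 83.2; 10 UMIs in 7 of 22 cells) and 87.8 CPM (37.9 to 173; 8 UMIs in 4 of 9 cells), in the range of T cells.

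Because macrophages were so many, they held 72 of 181 Cxcr3 UMIs (39.8%) in UEIS LSL and 80 of 123 (65.0%) in UEIS KI at a level under 2 CPM. Resident-like macrophages had 3.002 CPM (1.86 to 4.59) and 2.17 CPM (1.48 to 3.08), and Spp1 Arg1 macrophages 0.601 CPM (0.288 to 1.10) and 0.783 CPM (0.456 to 1.25). Collagen-positive cells, a deeper class, were at 0.126 CPM (1 UMI, upper bound 0.7001) and 0 UMIs. Whether that level is the background of macrophages was not tested. The thinned macrophage shares, 0.176% and 0.138%, lay under the limits that 0 of 370 and 0 of 194 collagen-positive cells allow, 0.811% and 1.55%. Whether the macrophage UMIs came from macrophage transcription was not tested. T and NK cells, with and without C1q, held 51.4% and 21.1% of Cxcr3 UMIs.

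Across 23 points, each a cell class in 1 library, log2(CPM + 10) of Cxcl9 was most like that of Slamf8 (Pearson r = 0.82), Snx3 (0.78), Cyp27a1 (0.78), Stard3nl (0.75) and Aif1 (0.75). Slamf8 and Aif1 are genes of macrophages. Cxcl10 was most like Rinl (0.89), Cst7 (0.84), S100a13 (0.83), Nt5dc1 (0.83) and Calhm6 (0.83). Cst7 encodes cystatin F of cytotoxic lymphocytes and myeloid cells. Cxcr3 was most like Cd226 (0.90), an activating receptor of T and NK cells, then Septin1 (0.85), Rexo5 (0.85), Itgae (0.84), the CD103 integrin chain, and Sla2 (0.84). Among the 3 genes r was 0.17 for Cxcl9 with Cxcl10, 0.62 for Cxcl10 with Cxcr3 and 0.09 for Cxcl9 with Cxcr3. The points share 2 libraries and their depth, so these values are descriptions.

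Other genes that handle the ligands were read from a list of 5. In macrophages Cxcl11 was 5.60 and 1.56 CPM (329 and 109 UMIs), a difference of -1.84 (-2.17 to -1.52). In cDC2 it was 18.2 and 4.38 CPM (48 and 6 UMIs). Dpp4, the peptidase that trims the ligands, was 1.98 and 0.603 CPM in macrophages, a difference of -1.71 (-2.26 to -1.19). Ackr3, a scavenging receptor of Cxcl11 and Cxcl12, was 7.42 and 10.9 CPM, and Pf4 1726 and 2002 CPM, neither past 1.5-fold.

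Upstream of the ligands, Ifng RNA was a lymphocyte transcript and was lower in UEIS KI. T cells with little C1q had 486 CPM (441 to 533; 440 UMIs) in UEIS LSL and 64.3 CPM (45.9 to 87.5; 40 UMIs) in UEIS KI, a difference of -2.92 (-3.42 to -2.45). NK cells had 458 and 145 CPM, from 73 and 18 UMIs. Of 20 measured upstream genes in macrophages, 7 were past 1.5-fold lower and none higher, beside 4.1% and 6.12% of all genes, with a median difference of -0.28 beside 0.05. Among the 7 were the interferon regulatory factors Irf1 (-0.998), Irf7 (-1.11) and Irf9 (-0.75), Stat2 (-0.75), Ifnb1 (-1.32, from 61 and 29 UMIs) and the feedback inhibitor Socs1 (-0.82). Receptor chains with the most UMIs were not among them: Ifngr1 was at -0.31 and Ifngr2 at -0.24. In monocytes 7 of 19 upstream genes were lower and none higher, beside 4.97% and 9.24% of all genes. In cDC2 none of 19 was lower or higher, beside 2.25% and 3.13% of all genes. In T cells 5 of 17 were lower and none higher, beside 5.47% and 5.14% of all genes, among them Ifng, Irf1 (-0.65), Irf9 (-0.92) and Irf7 (-1.01). These counts share their T cells with the macrophage RNA given above.

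Of 19 measured interferon-gamma-induced genes in macrophages, 16 were past 1.5-fold lower and none higher, beside 4.1% and 6.12% of all genes. Their median was -1.004 beside 0.05 over all genes. Serpina3g (-2.95), a protease inhibitor, Gbp4 (-2.45) and Ciita (-2.20), the master regulator of MHC class II genes, lay furthest from 0. The 3 that did not reach the size were Psmb8 (-0.58), Nlrc5 (-0.52) and Nos2 (0.51). In monocytes 10 of 13 were lower and none higher, beside 4.97% and 9.24% of all genes, with a median of -0.89. In cDC2 only 1 of 11 was lower and 1 higher, beside 2.25% and 3.13% of all genes, with a median of -0.38. In T cells 7 of 12 were lower and none higher, beside 5.47% and 5.14% of all genes, with a median of -0.88 beside 0.04. They included the macrophage Fc receptor Fcgr1, at 193 and 56.2 CPM, which moved beside the other macrophage RNA of that class.

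Most other chemokines of macrophages differed less. Of 19, 5 were lower and 2 higher, beside 4.1% and 6.12% of all genes, with a median of -0.28. Ccl5 had the difference nearest to that of Cxcl9, -2.52 (42.7 and 7.44 CPM), and the others lower were Cxcl12 (-2.16, from 49 and 13 UMIs), Cxcl3 (-0.78), Ccl22 (-0.73) and Ccl17 (-0.71). Cxcl14 (0.66) and Ccl24 (0.59) were higher. Cxcl2, at 3037 and 2340 CPM, and Ccl2, at 1369 and 1348 CPM, did not reach 1.5-fold. Among 9 genes of dissociation stress, 2 were lower, Hspa1a (-0.82) and Hspa1b (-0.76), beside 4.1% of all genes, and their part in the ligand values was not tested.

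**Figure D5:**
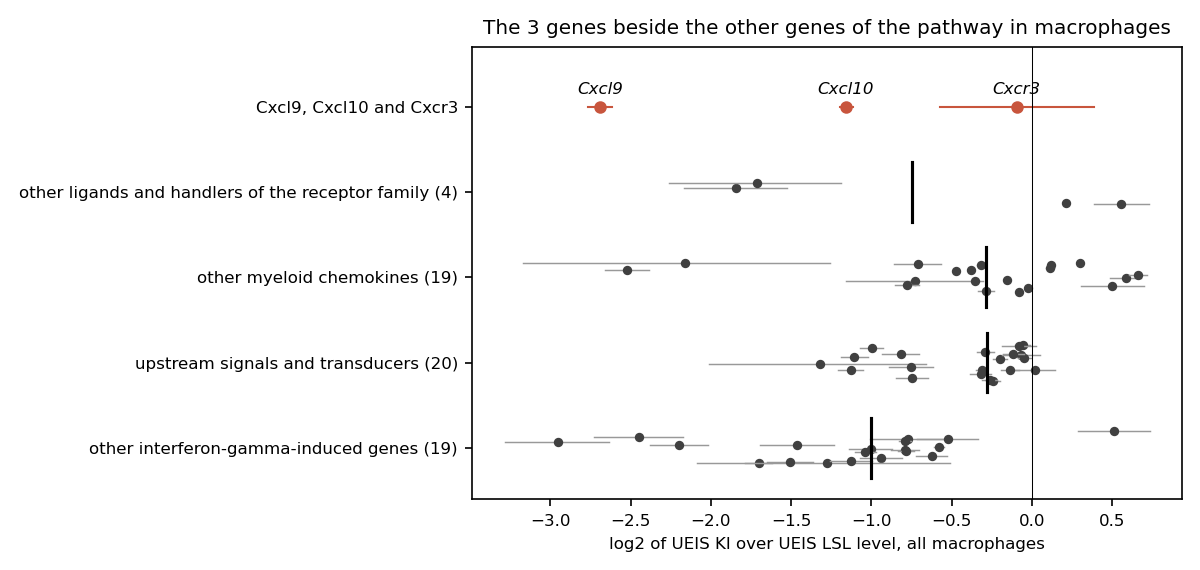
Log2 of UEIS KI over UEIS LSL level in macrophages for Cxcl9, Cxcl10 and Cxcr3 (red) and for the measured genes of 4 lists (grey, number of genes in brackets), with 95% counting intervals as horizontal lines and list medians as black bars; vertical scatter within a list has no meaning. Cxcl9 lay at -2.69 and Cxcl10 at -1.16, beside a median of -1.004 for the interferon-gamma-induced genes.

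Among T cell genes that go with Cxcr3, 10 type 1 lymphocyte genes could be measured, of which 3 were lower and 1 higher, beside 5.47% and 5.14% of all genes, with a median of -0.27. With T cells with C1q added, 3 of 12 were lower and 2 higher, beside 3.21% and 5.17% of all genes there, with a median of 0.14. Ifng (-2.92), Nkg7 (-1.08) and Ccl5 (-0.60) were lower, and Gzmb, a cytotoxic granule protease, was higher, at 112 and 260 CPM (1.22; 0.86 to 1.60). Tbx21 had 24 and 7 UMIs in T cells, 26.5 and 11.2 CPM, too few to be counted; it is named for its known link to Cxcr3. Of 6 other chemokine receptors measured, Cx3cr1 was lower (-1.17), beside the lower macrophage marker sum (4921 and 2726 CPM) and Pf4 of this class. Cx3cr1 is also a gene of macrophages, and the part of their RNA in this value was not tested. The others did not reach 1.5-fold with the interval on 1 side, among them Cxcr6, a receptor of tissue T cells, at 253 and 278 CPM. With T cells with C1q added, 4 of 8 receptors were higher and 1 lower, with a median of 0.44, beside 5.17% and 3.21% of all genes. In this wider set barcodes with C1q were 186 of 353 in UEIS LSL and 75 of 222 in UEIS KI, with C1q at 6704 and 4952 CPM. The wider set thus differs in its mix between the libraries. The part of that mix in its values, Cxcl10 among them, was not tested.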

How the data were processed

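Tumour-infiltrating cells were measured in 1 library per group. The deposited files give raw UMI counts for each gene in each barcode, with no normalisation. Cell Ranger 2.1.1 and mm10 are named in the submitters' processing notes, while the file header names version 8.0.1; the annotation was not given in the sources used here. Of 55357 gene identifiers, 94.1% matched GENCODE vM21. Kept barcodes had at least 500 UMIs, at least 200 genes and at most 10% mitochondrial UMIs, and were not among the highest Scrublet scores (0.8% per 1000 barcodes; scanpy 1.11.5). The libraries held 92764697 and 99404988 UMIs.

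Classes were called by detected markers: T cells 3 of 13, NK cells 4 of 12, B cells 4 of 9, macrophages 6 of 12, monocytes 5 of 10 and cDC2 4 of 9. The numbers of markers were set after marker and C1q levels were seen, not from the 3 genes. The members, lists and alternatives were chosen with earlier results of these data known. Levels are summed UMIs scaled to 1000000 (CPM), with exact Poisson, Clopper-Pearson and conditional binomial 95% intervals, and a count of 0 is limited by 3 counts of the total; there are no p-values. Genes named from a list are the 4 with most UMIs or those past 1.5-fold; likeness names the 5 highest correlations. Some items are not reported here. Code was tested on simulated data.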

Additional observations from a re-analysis of the deposited data

Results flagged for a closer look

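Cxcl10 in Cd8-positive T cells with little C1q was higher in UEIS KI, by 1.33 on the log2 scale (0.89 to 1.78). Its level was lower, with intervals off 0, in 12 other classes that are not all separate. They include all T cells with little C1q, which hold these Cd8-positive cells. The gamma-delta, Foxp3-positive and other subsets of that class are counted among them as well. The difference between the classes was not tested. The level was 493 CPM in UEIS LSL and 1244 CPM in UEIS KI, from 86 and 89 UMIs. A single cell held 38 of the 89. With Cd8-positive T cells with C1q included, the difference was 0.65 (0.27 to 1.02), and in thinned cells detection was 26.7% and 27.8%.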

How the results depend on the processing

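Of 97 alternative values, 79 lay within the counting interval of the reported one, 17 moved out of it and 1 reversed; 95 had the same sign. With 1 more marker per gate, Cxcl10 in monocytes reversed to 0.0209, and the other values were -2.56 for Cxcl9 in macrophages, -2.54 for Cxcl9 in monocytes, -2.17 for Cxcl9 in cDC2 and -2.54 for Cxcl10 in cDC2. With the same mix of macrophage states, Cxcl9 was -1.77 and Cxcl10 -1.08. Median-ratio scaling gave -1.20 for Cxcl10 in macrophages. With every cell counted alike, monocytes gave -0.90 for Cxcl9 and -0.43 for Cxcl10, and T cells -0.14 for Cxcl10. Without the highest cell of each library, chosen after seeing the data, monocytes gave -1.12 for Cxcl9 and -0.94 for Cxcl10, and cDC2 -1.16 for Cxcl10. Requiring 2 UMIs in thinned macrophages gave log2 ratios of detection of -2.77 for Cxcl9 and -1.39 for Cxcl10. Thinning to 500 UMIs raised the co-detection odds ratios to 9.77 (UEIS LSL macrophages) and 17.9 (UEIS KI macrophages). The cause of these shifts was not tested. The Cxcr3 detection ratio in T cells, -0.51, was 0.14 with at least 500 genes required, and its interval spans 0 in both. Restricting T cells to at most 2 other macrophage markers, also chosen after seeing the data, gave -0.84 for Cxcr3 and -0.68 for Cxcl10. With a minimum of 20 UMIs, 26 of 28 list counts were within 1.5 times. In T cells, higher interferon-gamma-induced genes and chemokine receptors each went from 0 to 1. No paired analysis was possible because each group has 1 library and the labels carry no replicate numbers. Depth limits Cxcr3 most, with 304 UMIs in kept cells.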
